A study of Mus musculus with 6 samples.

Results

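The heat shock chaperones described here are 10 genes, Hspa1a, Hspa1b, Hspa8, Hsp90aa1, Hsp90ab1, Dnajb1, Hsph1, Hspd1, Hspe1 and Hspb1, chosen by symbol as cytosolic and mitochondrial heat shock proteins. Each matched 1 of the 37991 Ensembl mouse gene IDs in the count tables, and all 10 passed the filter on low counts. The tables come from poly(A) RNA sequencing of 6 flash-frozen livers of FVB mice aged 84 days. In 3 livers the genotype was Ing5 MommeD48/+ (Het), with a single copy of an allele found in a genetic screen for modifiers of transgene silencing, and in 3 it was Ing5 +/+ (WT). Ing5 encodes a subunit of histone acetyltransferase complexes. Whether the numbered livers of a genotype are from different mice is not stated, so a p-value here reflects the spread among these samples alone, and that spread may be technical.

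Heat shock chaperones bind unfolded or partly folded proteins, keep them from aggregating and help them fold. HSP70 proteins do this in cycles of ATP hydrolysis that J-domain proteins (HSP40) start and nucleotide exchange factors such as HSP110 end, HSP90 proteins finish the folding of kinases and steroid hormone receptors, and the HSP60 and HSP10 chaperonin folds proteins inside mitochondria. Some members are made at all times, while others are induced in stressed cells by the transcription factor HSF1, which binds heat shock elements, inverted repeats of the letters GAA.

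Total counts per library were 21402396, 21272147 and 20032822 in Het livers and 20830886, 22041117 and 19840541 in WT livers. The 10 chaperones took 0.149% to 0.179% of the counts in Het livers and 0.160% to 0.171% in WT livers. Ing5 had 193, 217 and 180 counts in Het livers and 182, 228 and 191 counts in WT livers, a log2 fold change of -0.047 (SE 0.11), and the labels do not say what the allele changes, so this level is no check of the genotype. Hepatocyte markers such as Alb and Apoa1 summed to 99560 to 116300 CPM in Het livers and 93990 to 112000 CPM in WT livers, and 0 of these 10 markers were at 0. Markers of other cells were lower: sinusoidal endothelial markers summed to 186 to 236 CPM in Het and 187 to 237 CPM in WT livers, cholangiocyte markers to 27.4 to 29.6 and 29.9 to 33.6 CPM, lymphocyte and neutrophil markers to 7.22 to 11.3 and 6.94 to 10.1 CPM, and erythroid markers to 106 to 219.7 and 179 to 287 CPM. Muscle markers summed to 1.71 to 2.99 CPM in Het and 1.63 to 2.21 CPM in WT livers, with 4 of 7 at 0 in every liver. Nearly all of this was Des, at 1.71 to 2.99 CPM in Het and 1.59 to 2.16 CPM in WT livers. Des is also on the list of stellate cell and fibroblast markers. CPM values here are counts scaled to library size, and a fold change is given as log2 of Het over WT with its standard error (SE) from edgeR. In whole liver, fewer cells of a type and less RNA per cell cannot be told apart.

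The genes differed widely in level, and the order was nearly the same in every liver. Divided by exon length, Hsp90ab1 was the most abundant, with 268.5 ± 34.0 CPM per kb in Het livers and 257 ± 5.57 CPM per kb in WT livers (SD, n = 3 each). Hspd1 followed with 151 ± 11.3 CPM per kb in Het and 158 ± 6.64 in WT livers, then Hspa8 with 132 ± 11.4 in Het and 140 ± 16.1 in WT livers, and Hspe1 with 108 ± 4.06 in Het and 111 ± 15.5 in WT livers. The ranges of these last 3 neighbours overlapped over the 6 livers, although within each liver Hspd1 was above Hspa8 and Hspa8 above Hspe1, in 6 of 6 livers. Hsp90aa1 had 39.6 ± 9.96 CPM per kb in Het and 36.9 ± 2.56 in WT livers, Hsph1 14.1 ± 2.03 and 12.9 ± 0.834, and Dnajb1 5.99 ± 0.455 and 5.84 ± 0.800, and the ranges of these genes did not overlap. At the low end were Hspb1 with 2.83 ± 0.878 CPM per kb in Het and 2.37 ± 0.0523 in WT livers, Hspa1b with 2.12 ± 0.721 and 1.79 ± 0.576, and Hspa1a with 0.604 ± 0.110 and 0.413 ± 0.204. Hspb1 exceeded Hspa1b in 5 of 6 livers, and their ranges overlapped. Exon lengths were taken from a GRCm38 annotation rather than the one used for counting, so these levels per length are approximate.

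Hspa1a and Hspa1b encode the stress-inducible cytosolic HSP70, and both were scarce in these livers. Hspa1a had 45, 33 and 35 counts in Het livers and 11, 33 and 32 counts in WT livers, which is 2.15, 1.52 and 1.71 CPM in Het and 0.530, 1.498 and 1.65 CPM in WT livers. Het replicate 1 was the highest liver and WT replicate 1 the lowest, and the other Het values overlapped the WT values. Its log2 fold change of 0.55 had an SE of 0.36 and a 95% interval from -0.26 to 1.36. Hspa1b had 8.27, 4.60 and 4.98 CPM in Het livers and 3.32, 6.54 and 5.19 CPM in WT livers, with the same highest and lowest liver as Hspa1a, and its log2 fold change was 0.24 (SE 0.30). Without WT replicate 1 these values were 0.19 for Hspa1a and 0.014 for Hspa1b, and without Het replicate 1 they were 0.40 and -0.070.

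The copies lie near each other on chromosome 17 and are nearly identical, so reads may have been split between them or dropped, and the values of each are uncertain. Counts summed over both gave 10.4, 6.12 and 6.69 CPM in Het livers and 3.85, 8.04 and 6.84 CPM in WT livers, with a log2 fold change of 0.31 (SE 0.31). Their promoters are shown because the copies are nearly identical there too: over the 250 bases before the start site the RefSeq sequences (build GRCm38.p6) were identical at 247 positions and differed at 3. Capitals mark the pair of inverted GAA units, GAANNTTC, at 104 to 97 bases before each start site, on chr17:34972157-34972406 (minus strand) for Hspa1a and chr17:34959239-34959488 (minus strand) for Hspa1b.
Hspa1a: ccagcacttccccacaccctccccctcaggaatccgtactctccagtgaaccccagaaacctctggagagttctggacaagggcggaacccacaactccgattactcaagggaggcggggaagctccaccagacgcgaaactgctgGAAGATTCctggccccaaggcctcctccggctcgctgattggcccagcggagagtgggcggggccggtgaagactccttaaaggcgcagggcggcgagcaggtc
Hspa1b: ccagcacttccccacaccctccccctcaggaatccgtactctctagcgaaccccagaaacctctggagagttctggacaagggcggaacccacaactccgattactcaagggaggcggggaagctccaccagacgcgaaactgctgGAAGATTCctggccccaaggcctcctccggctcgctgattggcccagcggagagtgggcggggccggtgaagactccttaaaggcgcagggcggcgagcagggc

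Hspa8 encodes the constitutive cytosolic HSP70, HSC70. It had 286, 326 and 338 CPM in Het livers and 304, 326 and 379 CPM in WT livers, with a log2 fold change of -0.085 (SE 0.12). Het replicate 1 was the lowest of the 6 and WT replicate 3 the highest, and the groups overlapped. The inducible copy Hspa1b stood at 0.0289, 0.0141 and 0.0147 times the CPM of Hspa8 in Het livers and at 0.0110, 0.0201 and 0.0137 times in WT livers, so its share next to Hspa8 was largest in Het replicate 1 and smallest in WT replicate 1. Hspa8 has processed pseudogenes with nearly the same sequence, which makes its counts less certain.

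**Figure D1:**
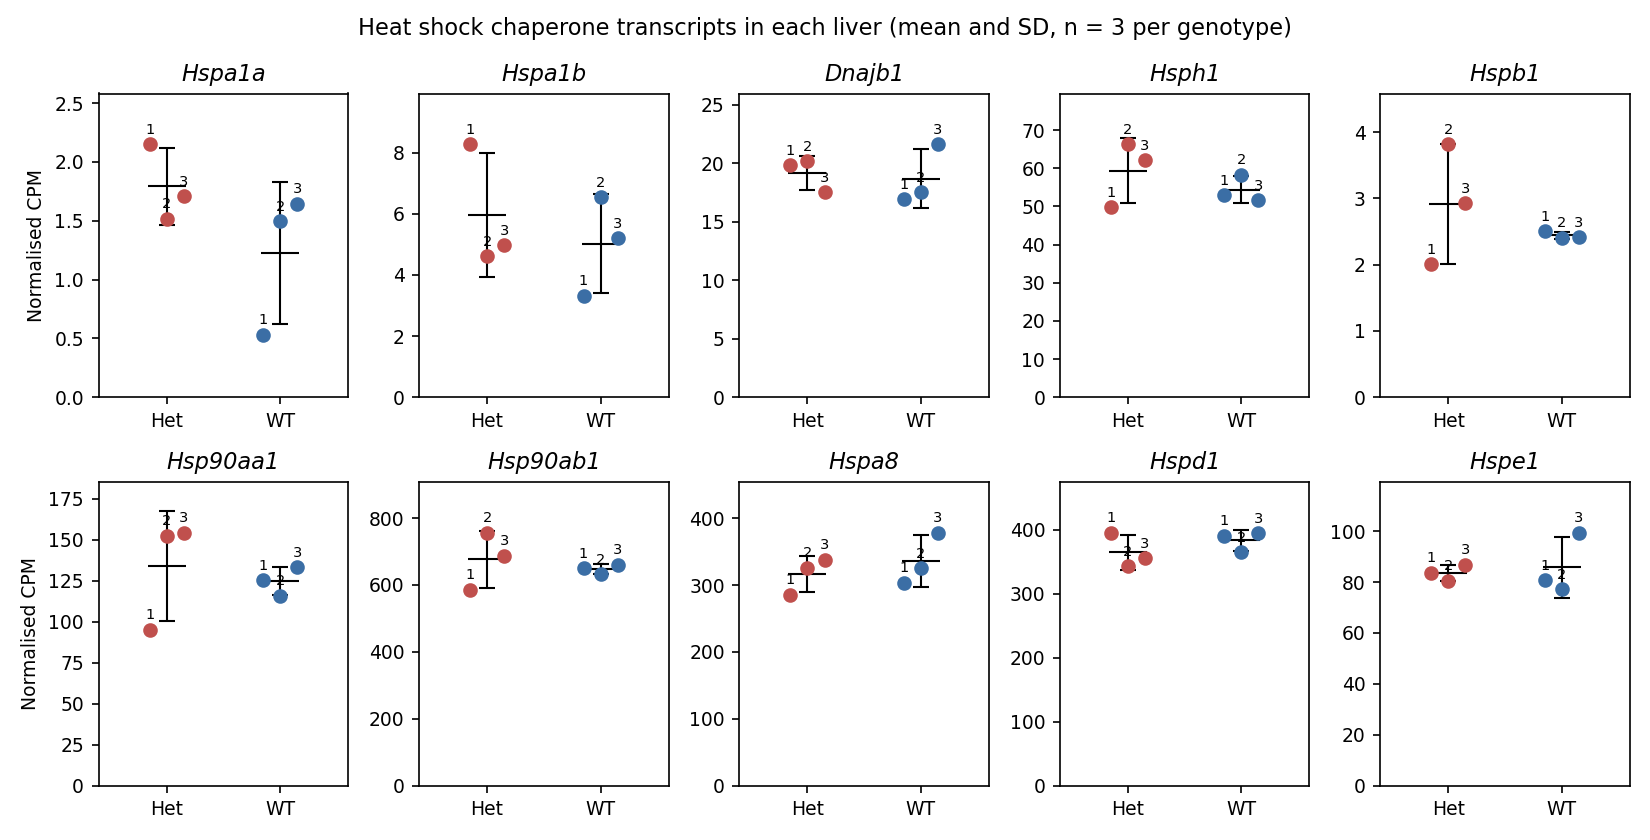
Normalised CPM of each chaperone gene in the 3 Het livers (left, red) and the 3 WT livers (right, blue), numbered by replicate, with bars for the mean and SD. The groups overlap for all 10 genes, Het replicate 1 is highest for Hspa1a (2.15 CPM) and lowest for Hsp90aa1 (95.04 CPM), and each vertical axis starts at 0.

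The partners of HSP70 were Dnajb1 and Hsph1. Dnajb1, an inducible J-domain protein that delivers clients to HSP70, had 19.8, 20.2 and 17.5 CPM in Het livers and 17.0, 17.5 and 21.6 CPM in WT livers, and its log2 fold change was 0.038 (SE 0.11). Hsph1, the HSP110 that exchanges the nucleotide of HSP70, had 49.8, 66.4 and 62.1 CPM in Het livers and 53.0, 58.3 and 51.7 CPM in WT livers (log2 fold change 0.13, SE 0.11). For Hsph1, Het replicates 2 and 3 were above every WT liver and Het replicate 1 below every WT liver, while Dnajb1 was highest in WT replicate 3. The Hsph1 promoter (chr5:149636339-149636586, minus strand, GRCm38.p6, RefSeq) is shown for the unit pair TTCNNGAA in capitals, which lies 33 to 26 bases before the start site at position 149636336 and 54 to 47 bases before the other RefSeq start site, at 149636315.
Hsph1: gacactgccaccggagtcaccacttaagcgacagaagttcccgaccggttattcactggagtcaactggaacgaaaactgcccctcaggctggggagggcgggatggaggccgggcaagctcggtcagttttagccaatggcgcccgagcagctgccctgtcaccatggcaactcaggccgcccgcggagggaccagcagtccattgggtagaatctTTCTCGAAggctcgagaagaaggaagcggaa

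HSP90 is encoded by Hsp90aa1, the more inducible gene, and Hsp90ab1, the constitutive one. Hsp90aa1 had 95.04, 152 and 154 CPM in Het livers and 125, 116 and 133 CPM in WT livers. Het replicate 1 was the lowest of the 6 livers and Het replicates 2 and 3 the highest, so the WT values lay inside the Het range. The highest Het liver had 1.62 times the CPM of the lowest, against 1.15 times among WT livers. The log2 fold change was 0.10 (SE 0.18), and it was 0.30 without Het replicate 1 and -0.013 without Het replicate 3.

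Hsp90ab1 had 586, 756 and 687 CPM in Het livers and 650, 633 and 660 CPM in WT livers, with a log2 fold change of 0.063 (SE 0.12). As for Hsp90aa1, Het replicate 1 lay below and Het replicates 2 and 3 above all WT livers. Hsp90aa1 made up 14.0%, 16.8% and 18.3% of the CPM of both genes in Het livers and 16.2%, 15.5% and 16.8% in WT livers.

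Hspb1 encodes a small heat shock protein that holds unfolded proteins without using ATP. Its counts were 42, 83 and 60 in Het livers and 52, 53 and 47 in WT livers, which is 2.01, 3.82 and 2.93 CPM in Het and 2.504, 2.41 and 2.42 CPM in WT livers (log2 fold change 0.26, SE 0.23). The WT livers were within 1.04-fold of each other, while the Het livers spanned 1.90-fold, with replicate 2 highest and replicate 1 lowest. Without Het replicate 2 the log2 fold change was 0.014. Het replicate 2 also had the highest sum of stellate cell and fibroblast markers, at 312 CPM against 252 and 241 CPM in the other Het livers and 253, 197 and 273 CPM in the WT livers, and its Kupffer cell and macrophage markers summed to 343 CPM against 249 and 197 CPM in the other Het livers and 313, 306 and 179 CPM in the WT livers. None of the 10 stellate and 12 macrophage markers was at 0 in every liver, and their part in the Hspb1 values was not tested. The Hspb1 promoter (chr5:135887669-135887918, plus strand, GRCm38.p6, RefSeq) holds GAANNTTC at 2 places, in capitals, between 117 and 90 bases before the start site.
Hspb1: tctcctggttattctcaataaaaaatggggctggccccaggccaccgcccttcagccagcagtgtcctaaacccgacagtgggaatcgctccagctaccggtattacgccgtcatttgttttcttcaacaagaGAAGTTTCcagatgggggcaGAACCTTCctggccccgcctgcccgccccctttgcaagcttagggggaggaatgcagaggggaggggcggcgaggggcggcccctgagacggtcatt

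The mitochondrial chaperonin is a cage of HSP60, from Hspd1, with a lid of HSP10, from Hspe1. Hspd1 had 396, 343 and 356 CPM in Het livers and 391, 365 and 395 CPM in WT livers (log2 fold change -0.072, SE 0.10). Hspe1 had 83.7, 80.5 and 86.8 CPM in Het livers and 80.8, 77.2 and 99.5 CPM in WT livers (-0.036, SE 0.10). Hspd1 was highest in Het replicate 1, the liver with the lowest HSP90 values, but WT replicates 3 and 1 were nearly level with it. Hspe1 was highest in WT replicate 3. Hspe1 stood at 0.212, 0.235 and 0.244 times the CPM of Hspd1 in Het livers and at 0.207, 0.211 and 0.252 times in WT livers, so the ratio also overlapped between genotypes.

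Hspd1 and Hspe1 lie head to head on chromosome 1. RefSeq gives 2 start sites for Hspd1: from that at position 55087932 the Hspe1 start lies 216 bases away with shared DNA between them, while that at 55088243 lies 95 bases beyond the Hspe1 start, and its window does not hold the letters described here. The shared DNA is shown because it holds the densest run of heat shock element letters among the promoters found: the 3-unit form TTCNNGAANNTTC overlapped itself on both strands, 89 to 72 bases before the Hspe1 start site. The stretch without exons is chr1:55088025-55088131 (plus strand, GRCm38.p6, RefSeq), with the units in capitals.
Hspe1: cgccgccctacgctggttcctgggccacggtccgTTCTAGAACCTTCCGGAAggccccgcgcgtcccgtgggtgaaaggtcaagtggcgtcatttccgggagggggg

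Promoter sequences were found for 7 of the 10 genes, and not for Hspa8, Hsp90aa1 and Hsp90ab1. Over 250 bases before each start site and both strands, the 3-unit form was in the windows of 2 of these 7 genes (Hspd1 and Hspe1, which share it) and in those of 0.514% of 27025 genes (0.466% of 32851 windows, since some genes have several start sites). GAANNTTC was found for 5 of the 7 and for 7.73% of all genes (6.69% of windows), and TTCNNGAA for 3 of the 7 and for 8.11% of all genes (7.17% of windows). Both short forms lie inside the 3-unit form, so these counts overlap. Hspd1 and Hspe1 share their short matches too, and the windows of Hspa1a and Hspa1b are nearly identical. The genes counted for each short form are therefore not independent promoters. For Dnajb1 these letters were not in the windows searched, which says nothing about the factor.

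Over all genes, 0 of the 10 chaperones differed between Het and WT livers at an adjusted p of 0.05 (edgeR quasi-likelihood fit, Benjamini-Hochberg adjusted), and 0 of 12631 genes tested passed (0%). The adjusted p of each chaperone was 0.9998. At an unadjusted p under 0.05 there were again 0 of the 10, against 547 of all genes (4.33%), and the smallest unadjusted p was 0.16, for Hspa1a. With DESeq2, 0 of the 10 and 13 of all genes (0.105%) passed an adjusted p of 0.05, and with limma-voom 0 of the 10 and 0 of all genes (0%). The Het and WT values overlapped for every chaperone, while 1136 of all genes (8.99%) had values that did not overlap.

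The log2 fold change was positive for 7 of the 10 and for 6357 of all genes (50.3%), and its median was 0.082 over the 10 and 0.00088 over all genes. For 7 of the 10, the whole 95% interval was inside 1.5-fold in either direction, as for 71.1% of all genes. The interval of Hspa1a, a fold of 0.836 to 2.56, was the only one of the 10 to reach beyond 2-fold, and those of Hspa1b (0.733 to 1.91) and Hspb1 (0.831 to 1.72) reached beyond 1.5-fold.

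**Figure D2:**
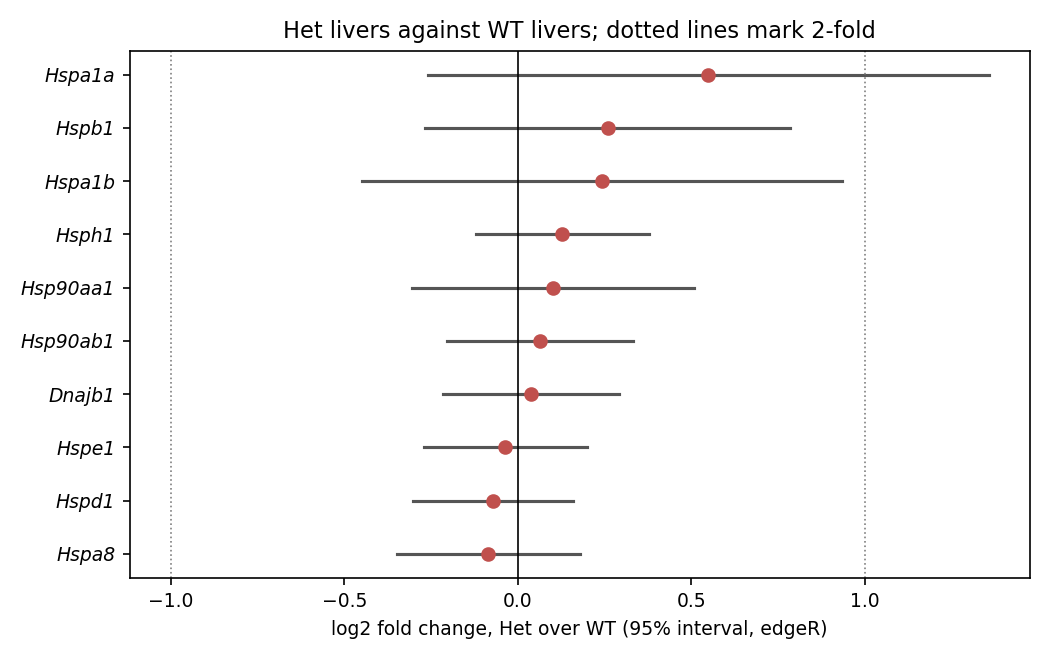
The log2 fold change of Het over WT livers (points) with its 95% interval (lines) for each chaperone gene, from the edgeR fit to 3 livers per genotype. Every interval includes 0, and only that of Hspa1a (-0.26 to 1.36) crosses the dotted line at 2-fold.

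For each of the 10 genes the SD of log2 CPM between livers, pooled over both genotypes, exceeded the size of the log2 fold change, and the genes did not follow a single order of livers. This pooled SD was 0.604 for Hspa1a, 0.470 for Hspa1b, 0.319 for Hspb1 and 0.290 for Hsp90aa1, all above the upper quartile of all genes tested (0.252). The other 6 chaperones had an SD of 0.0870 to 0.166. That of Hspd1 (0.0870) was below the lower quartile of all genes (0.0997), and the rest were around the median (0.154). Het replicate 1 was the lowest liver for Hsp90aa1, Hsp90ab1, Hspa8, Hsph1 and Hspb1, 5 of the 10. It was the highest for Hspa1a and Hspa1b and, by a narrow margin, for Hspd1. It was the lowest liver for 13.7% of all genes tested and the highest for 14.8%.

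Without Het replicate 1, the 3 genes Hsp90aa1 (log2 fold change 0.30, SE 0.094), Hsph1 (0.24, SE 0.091) and Hspb1 (0.47, SE 0.20) passed an unadjusted threshold of 0.05 with edgeR, while 7.33% of all genes did. With Het replicate 2, Het replicate 3, WT replicate 1, WT replicate 2 or WT replicate 3 left out instead, 0 of the 10 passed that threshold, and 2.75%, 3.05%, 2.22%, 4.16% and 10.8% of all genes did. None of the 10 passed after Benjamini-Hochberg adjustment without Het replicate 1, the smallest adjusted p being 0.453 (edgeR). The sum over the 10 genes was 1528, 1755 and 1712 CPM in Het livers and 1627, 1603 and 1749 CPM in WT livers, lowest in Het replicate 1.

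**Figure D3:**
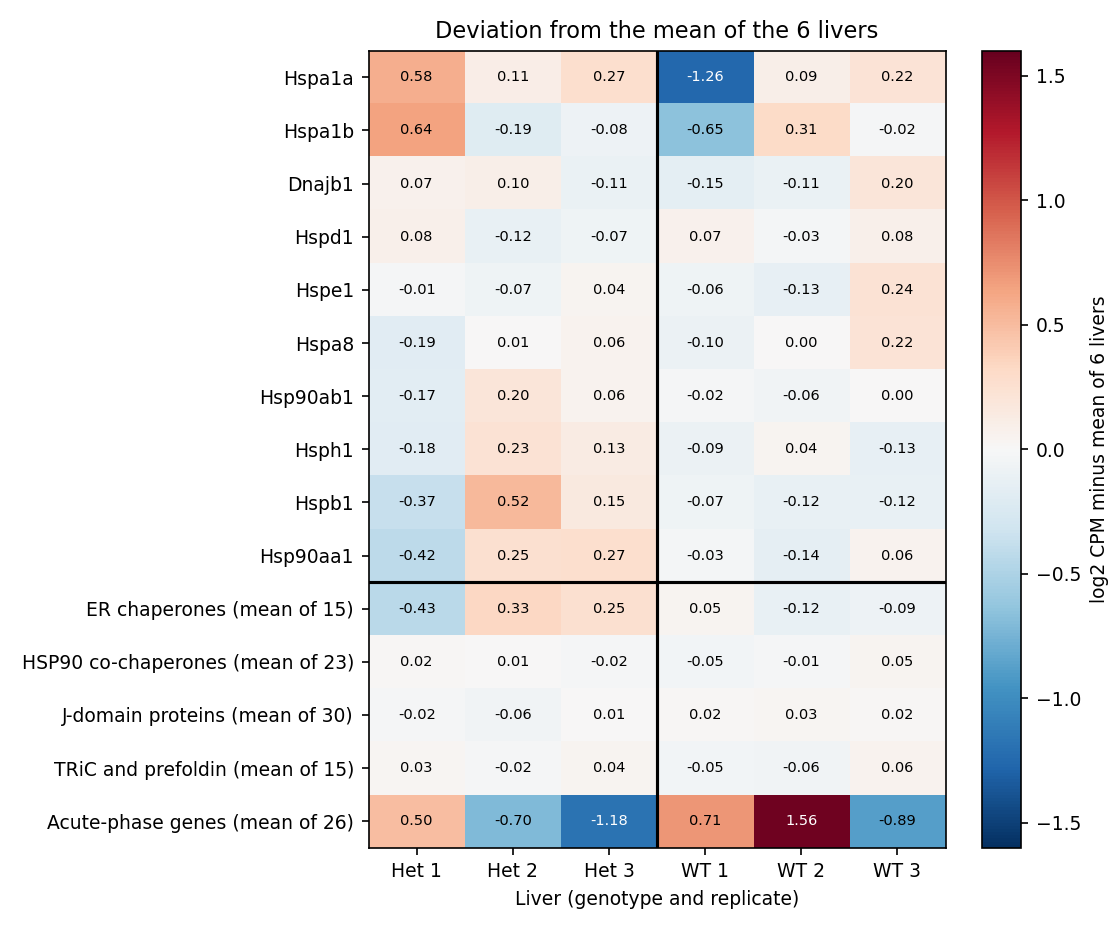
Each cell gives the log2 CPM of a chaperone gene in 1 liver minus the mean of the 6 livers, with the mean over the genes of 5 other lists under the line. In Het replicate 1 Hspa1a and Hspa1b (0.58 and 0.64) and Hsp90aa1 (-0.42) deviate in opposite directions, and the ER chaperones (-0.43) and Hsp90aa1 deviate alike.

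Chaperones of the endoplasmic reticulum, the relatives that fold secreted proteins, were also lowest in Het replicate 1 and highest in Het replicates 2 and 3 by their mean score. Of 15 tested, 14 were lowest in Het replicate 1 and 12 were highest in Het replicate 2. Over all genes tested, these shares were 13.7% and 17.7%. Their CPM summed to 3734, 5837 and 5501 in Het livers and to 4963, 4441 and 4499 in WT livers. Hspa5 (BiP), the HSP70 of this compartment, had 500, 962 and 915 CPM in Het livers and 769, 691 and 684 CPM in WT livers. Hsp90b1, its HSP90, had 622, 976 and 936 CPM in Het livers and 821, 728 and 757 CPM in WT livers (log2 fold change 0.14, SE 0.17), and the calcium-binding chaperone gene Calr had 621, 913 and 834 CPM in Het and 774, 706 and 703 CPM in WT livers. The list had 0 genes with an unadjusted p under 0.05, against 4.33% of all genes, and a median log2 fold change of 0.14. Its part in the HSP90 values was not tested.

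The mean profile of the 6 inducible cytosolic chaperones (Hspa1a, Hspa1b, Dnajb1, Hsph1, Hsp90aa1 and Hspb1) was compared with those of 9468 other genes. Only genes above a cut on mean log2 CPM were searched, so the scarcest pathway genes could not appear. The 10 closest included 0 of the genes on the pathway lists, of which 121 were tested before that cut. With so few genes taken from so many, this 0 says little about the pathway genes. Likeness was measured as the root mean square difference of log2 CPM, each gene centred on its own mean. The closest were Actr5 (difference 0.0409), a chromatin remodeller subunit gene, Crebzf (0.0550), Tpra1 (0.0557), Snx21 (0.0583) and Dennd4b (0.0623), followed by Mrm2, Gm15443, Tgfbr3, 2610005L07Rik and Dph6 (up to 0.0684). The mean profile stood at 0.053, 0.17 and 0.11 in Het livers and -0.38, 0.012 and 0.034 in WT livers. Its low value in WT replicate 1 came mostly from the scarce Hspa1a (-1.26, on 11 counts) and Hspa1b (-0.65), while Dnajb1, Hsph1, Hspb1 and Hsp90aa1 were at -0.15, -0.094, -0.066 and -0.027 in that liver, so the search mostly matched the Hspa1 copies. The profile of Hsp90aa1 was therefore also searched, a choice made after its values were seen. Its closest genes were Edem2 (0.0174), a gene of ER-associated degradation, Wdr91 (0.0495) and Slc35b1 (0.0523), and Hsp90b1 (0.0717) was ninth.

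Among other genes of the chaperone network, 121 of 136 listed genes were tested, and 0 passed with edgeR after adjustment over all genes. At an unadjusted p under 0.05, 3 were higher and 0 lower in Het livers, where 2.12% and 2.21% of all genes were. These 3, named after their values were seen, were Stip1, the HSP70 to HSP90 adaptor HOP, with 78.8 ± 6.22 CPM in Het and 68.2 ± 3.39 CPM in WT livers, the BAG family gene Bag6 with 70.4 ± 1.27 and 62.7 ± 2.31 CPM, and the mitochondrial protease subunit gene Clpx with 95.3 ± 17.4 and 72.8 ± 6.54 CPM (SD, n = 3 each). The median log2 fold change of the 121 genes was 0.021, with 71 positive and 50 negative.

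Other HSP70 and HSP110 genes had a median log2 fold change of 0.0080 over 7 tested of 9. Hspa9, the mitochondrial HSP70 mortalin, had 615 ± 9.65 CPM in Het and 611 ± 40.3 CPM in WT livers (log2 fold change 0.0080, SE 0.10), and the HSP110 gene Hspa4 had 126 ± 6.50 and 127 ± 6.55 CPM. J-domain protein genes had a median of -0.021 over 30 tested of 35. This list leaves out the J-domain genes that were placed with the ER chaperones, such as Dnajc3. Its most abundant gene was Dnaja1, with 202 ± 14.0 CPM in Het and 231 ± 7.30 CPM in WT livers (log2 fold change -0.19, SE 0.092). Next was Dnaja2, with 117 ± 5.04 CPM in Het and 128 ± 1.76 CPM in WT livers. Small heat shock protein genes other than Hspb1 were tested for 3 of 8, and Hspb8 had 158 ± 9.47 CPM in Het and 183 ± 22.7 CPM in WT livers, while Hspb6 had 17.2 ± 3.40 and 15.5 ± 1.13 CPM.

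Of 23 HSP90 co-chaperones, 1 (Stip1) had an unadjusted p under 0.05, against 4.33% of all genes, and the median log2 fold change was 0.021. The immunophilin genes Fkbp8 and Fkbp4 had 217 ± 3.76 and 147 ± 15.3 CPM in Het livers and 211 ± 19.3 and 142 ± 21.5 CPM in WT livers. Of 11 HSP70 exchange factors and regulators the median was 0.049, with St13 (HIP) at 158 ± 3.70 CPM in Het and 161 ± 7.58 CPM in WT livers and Grpel1, the exchange factor of mitochondrial HSP70, at 108 ± 9.18 and 112 ± 5.57 CPM. The cytosolic chaperonin TRiC and its partner prefoldin had a median of 0.0035 over 15 genes, and the subunit genes Cct8 and Tcp1 had 132 ± 6.39 and 115 ± 2.12 CPM in Het and 127 ± 8.81 and 116 ± 6.95 CPM in WT livers. For 13 genes of mitochondrial protein quality control the median was 0.0098, and Trap1, the mitochondrial HSP90, had 184 ± 10.02 CPM in Het and 184 ± 10.07 CPM in WT livers.

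Of 7 listed genes for heat shock factors and their binding partners, 4 were tested, and none of these passed the test between genotypes. Hsf3, Hsf5 and Hsf2bp did not pass the filter on low counts. Hsf1 had 13.4, 12.5 and 13.3 CPM in Het livers and 13.0, 12.7 and 14.2 CPM in WT livers (log2 fold change -0.026, SE 0.093). Hsf2 had 31.2 ± 3.06 CPM in Het and 31.2 ± 2.52 CPM in WT livers, and Hsbp1, whose product binds HSF1, had 56.0 ± 2.93 and 59.8 ± 3.62 CPM. Transcript levels do not measure the activation of HSF1, which is controlled on the protein. Among 18 other target genes of HSF1 the median log2 fold change was -0.014. At an unadjusted p under 0.05, 1 (Stip1 again) was higher and 0 lower in Het livers, against 2.12% and 2.21% of all genes. The ubiquitin gene Ubb had 304 ± 29.8 CPM in Het and 315 ± 18.5 CPM in WT livers, and Bag3, the inducible HSP70 co-chaperone gene, had 17.4, 17.3 and 17.6 CPM in Het livers and 17.2, 18.4 and 20.7 CPM in WT livers.

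**Figure D4:**
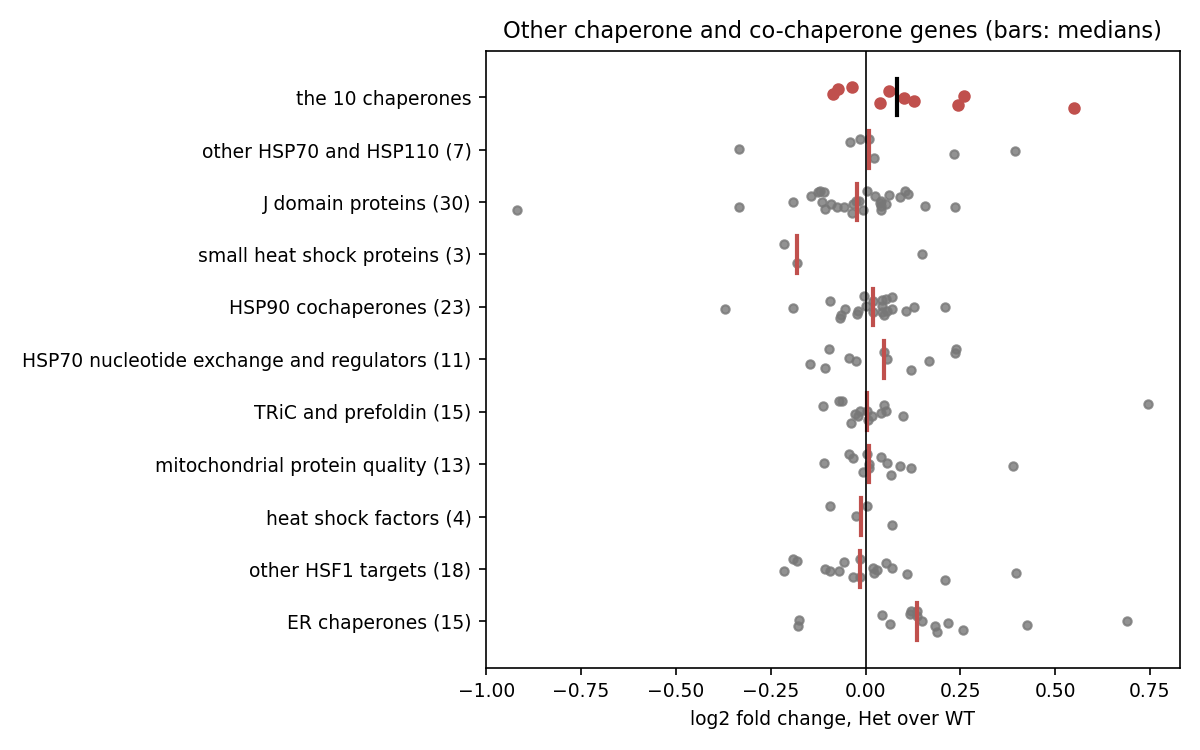
The log2 fold change of Het over WT livers for the 10 chaperone genes (top) and for genes of the other lists (number tested in brackets), with bars for medians. The medians lie between -0.18 for 3 small heat shock protein genes and 0.14 for 15 ER chaperone genes, and that of all genes is 0.00088.

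Other programmes that vary between livers were measured beside the chaperones. The mean acute-phase score, log2 CPM minus the mean of the 6 livers over 26 genes such as Fgb and Hpx, was 0.50, -0.70 and -1.18 in Het livers and 0.71, 1.56 and -0.89 in WT livers. The 3 livers with a score under 0, Het replicates 2 and 3 and WT replicate 3, had the 3 highest Hsp90aa1 values. They were also the 3 highest for Hsp90ab1 and Hspa8, but not for the other chaperones, such as Hsph1 and Hspa1b. For Hspa8 this rests on a near tie, with 326.3 CPM in Het replicate 2 and 325.7 CPM in WT replicate 2. The part of the acute phase in this was not tested. Of 26 acute-phase genes 25 had a negative log2 fold change (median -0.56), as had 6274 of all 12631 genes, and 0 passed the edgeR test. These genes varied together: WT replicate 2 was the highest liver for 24 of the 26, and for 17.6% of all genes tested. Saa4, an apolipoprotein gene, was the 1 gene of the list with an unadjusted p under 0.05, against 4.33% of all genes. It had 431 ± 23.2 CPM in Het and 769 ± 303 CPM in WT livers. Fgb had 3537 ± 51.1 CPM in Het and 4484 ± 1399 CPM in WT livers, and Hpx had 2670 ± 812 and 4318 ± 2228 CPM.

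Immediate early genes, which rise within minutes in disturbed tissue, scored -0.18, 0.16 and -0.18 in Het livers and 0.015, -0.054 and 0.24 in WT livers. Zfp36 had 48.6 ± 6.19 CPM in Het and 51.7 ± 10.6 CPM in WT livers, and Jund had 18.1 ± 0.474 and 16.5 ± 6.26 CPM. Rbm3 and Cirbp, RNA-binding protein genes induced by cooling, had 41.5, 35.6 and 34.4 CPM and 19.6, 21.8 and 17.2 CPM in Het livers against 39.5, 42.9 and 37.8 CPM and 16.9, 19.7 and 16.4 CPM in WT livers. Clock genes had a median log2 fold change of -0.030 over 14 tested, with Tef at 261 ± 1.83 CPM in Het and 261 ± 19.6 CPM in WT livers and Nr1d2 at 135 ± 1.51 and 139 ± 6.91 CPM. Of the clock genes, 1 passed an unadjusted threshold of 0.05 with edgeR, against 4.33% of all genes. This was Per1, which glucocorticoids also induce, at 28.7 ± 3.73 CPM in Het and 40.6 ± 6.92 CPM in WT livers. Mitochondrial transcripts took 11.4% to 11.6% of the counts in Het and 10.8% to 13.4% in WT livers.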

How the data were processed

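Poly(A) RNA from 6 livers was harvested with Trizol, and libraries were built with an Illumina TruSeq kit, per the labels' protocols. The submitters' processing notes name TopHat2 2.0.11, HTSeq 0.6.1 and DESeq with build mm9. Their roles, the strand counted and the annotation used are not given in the sources used here. Each deposited table holds raw counts per Ensembl gene ID, and 32919 of 37991 IDs were matched to symbols. Libraries were compared by chi-square over genes with at least 10 counts, and at 10.2 to 79.9 per degree of freedom none was a copy of another.

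Counts were fitted in R 4.3.3 with edgeR 4.0.16: filterByExpr by genotype (12631 genes), TMM factors of 0.977 to 1.02, and the robust quasi-likelihood test with genotype as the sole factor. P-values were adjusted by Benjamini-Hochberg over all genes tested, with a threshold of 0.05. Intervals are 95% and were derived with the SE from each F statistic. Centred profiles used log2 CPM with a prior count of 2. Alternatives were DESeq2 size factors, other filters, a fit that was not robust, the replicate block, DESeq2 1.42.0, limma-voom (limma 3.58.1), each library left out in turn, and the summed Hspa1 copies. The fits were tested on simulated data.

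The members and lists were chosen with earlier results of these data known. Genes named were the 10 chaperones, Ing5, the 2 most abundant tested genes of each pathway or context list, and the 10 genes closest in profile. Of the genes under this rule, 1 is not reported here. Stip1, Bag6, Clpx, Per1, Saa4, Hsf1, Bag3, Hspa5, Edem2, Wdr91 and Slc35b1 were added after their values were seen. Marker lists of sinusoidal endothelial cells, cholangiocytes, lymphocytes and neutrophils, erythroid cells and muscle served as checks of the tissue. Promoters are RefSeq sequences on GRCm38.p6 and exon lengths are from GENCODE M21 (GRCm38), another build than that of the files.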

Additional observations from a re-analysis of the deposited data

How the results depend on the processing

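None of the 10 chaperones passed an adjusted p of 0.05 in any alternative run, so their count was 0 throughout. The count over all genes was 1 with no low-count filter, 13 with DESeq2, 10 without Het replicate 1, 17 without WT replicate 3 and 0 in the other alternatives, a range of 0 to 17 with 1 library left out, and the cause was not tested. Deviations of same-numbered livers correlated at -0.025, -0.078 and 0.22 across genes, inside the range of differently numbered livers (-0.22 to 0.25). Deviations were centred within each genotype of 3 livers, so these values cannot decide whether the numbers pair the livers. With the replicate block 0 genes and 0 chaperones passed. No chaperone changed direction outside the fits with a library left out. There, 9 of 60 values did, for 6 genes, whose log2 fold changes ranged from -0.070 to 0.49 for Hspa1b, -0.032 to 0.16 for Dnajb1, -0.013 to 0.30 for Hsp90aa1, -0.16 to 0.0097 for Hspa8, -0.025 to 0.16 for Hsp90ab1 and -0.11 to 0.083 for Hspe1. The other 4 kept their sign and ranged from 0.19 to 0.81 for Hspa1a, 0.042 to 0.24 for Hsph1, 0.014 to 0.47 for Hspb1 and -0.13 to -0.029 for Hspd1, so each value moved by over 1.5 times with 1 library left out.

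Of the other genes named, Tef turned to 0.0017 with the replicate block and 0.00068 with limma-voom. With a library left out, 20 changed direction, with ranges of -0.049 to 0.058 for Tef, -0.00038 to 0.26 for Calr, -0.013 to 0.22 for Dennd4b, -0.039 to 0.18 for Fkbp4, -0.00078 to 0.12 for Fkbp8, -0.021 to 0.18 for Gm15443, -0.060 to 0.025 for Hsf1, -0.081 to 0.046 for Hsf2, -0.048 to 0.030 for Hspa4, -0.014 to 0.39 for Hspa5, -0.045 to 0.036 for Hspa9, -0.025 to 0.25 for Hspb6, -0.12 to 0.0077 for Ing5, -0.046 to 0.48 for Jund, -0.0020 to 0.20 for Mrm2, -0.095 to 0.25 for Slc35b1, -0.061 to 0.030 for Tcp1, -0.038 to 0.045 for Trap1, -0.13 to 0.012 for Ubb and -0.22 to 0.077 for Zfp36. Saa4 passed without WT replicate 3, at -1.12. Depth limits Hspa1a most, with 11 to 45 counts per library, and a count of 0 would allow up to 0.136 to 0.154 CPM, for counting error only.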
